A study of Mus musculus with 32 samples.

Results

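A set of 40 cell cycle and DNA replication genes was followed in mouse liver. They were a list of gene symbols, looked up among the 55421 genes of a table of estimated counts. The set holds 6 regulators of the passage from G1 into S phase, 12 S phase genes and 22 genes of G2 and mitosis. The study compared livers of mice with a floxed control genotype (flox) and livers of Mettl14 knockout mice (KO), each after hepatectomy, the surgical removal of part of the liver, or after a sham operation. Each of the 4 groups had 4 animals. Sham flox animals were 71 to 77 days old, and animals of the other 3 groups were 72 or 73 days old. From each animal came 1 input library, which is ordinary mRNA sequencing, and 1 IP library, made from RNA fragments that an m6A antibody captured; m6A is the methyl mark on adenosine that the METTL14 and METTL3 enzyme pair writes. Input libraries used a stranded mRNA kit and IP libraries a different one. The sources used here do not give the Cre line, the cell type in which Mettl14 was deleted or the time between surgery and sampling, and the labelled tissue is liver with no cell sorting named.

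Adult hepatocytes are quiescent and re-enter the cell cycle when liver mass is lost. D-type cyclins with Cdk4, and then E-type cyclins with Cdk2, release E2F factors, which switch on the genes for loading the MCM helicase and for making nucleotides and DNA. Later, the MuvB complex with B-Myb and FoxM1 switches on the genes of G2 and mitosis, which act on chromosome condensation, the spindle, the kinetochore and cytokinesis.

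The promoters of the members were described by role. For this, 3 short motifs were searched on both strands in the 250 bases before each start in RefSeq's mouse promoters (GRCm38.p6): the E2F motif (TTTGGCGC or TTTCCCGC), the cell cycle homology region or CHR (TTTGAA or TTCGAA), and the CCAAT box (CCAAT). Of the 22 G2 and mitosis genes, 17 had a promoter in the table. A CHR was found in 9 of them, a CCAAT box in 15, both in 9 and an E2F motif in 0. Of 11 S phase genes with a promoter, 4 held the E2F motif, 2 a CHR and 8 a CCAAT box. Among all 27025 genes with a promoter in the table, 1.51% held the E2F motif, 19.6% a CHR and 37.5% a CCAAT box. Both a CHR and a CCAAT box were held by 7.0%. The promoters of the 3 mitosis genes with a called change in the IP libraries are printed below with that of Mcm6, the S phase gene with the highest mean IP level, for contrast. All 4 genes lie on the minus strand, the sequences run 5′ to 3′ up to the base before the start, and capitals mark the searched motifs, which stand as their reverse complement where they lie on the other strand. TTCGAA is its own reverse complement and was counted once, and no motifs overlapped in these 4 windows.
Mki67: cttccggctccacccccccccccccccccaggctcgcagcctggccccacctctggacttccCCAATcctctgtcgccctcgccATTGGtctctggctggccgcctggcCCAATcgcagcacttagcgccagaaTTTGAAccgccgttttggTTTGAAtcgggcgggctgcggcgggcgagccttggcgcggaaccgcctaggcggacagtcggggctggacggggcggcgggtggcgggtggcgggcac
Top2a: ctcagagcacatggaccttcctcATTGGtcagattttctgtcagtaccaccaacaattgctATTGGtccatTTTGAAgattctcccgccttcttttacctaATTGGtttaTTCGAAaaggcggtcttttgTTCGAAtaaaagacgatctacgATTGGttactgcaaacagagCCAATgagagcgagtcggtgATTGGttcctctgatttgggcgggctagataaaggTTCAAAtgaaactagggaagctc
Ckap2l: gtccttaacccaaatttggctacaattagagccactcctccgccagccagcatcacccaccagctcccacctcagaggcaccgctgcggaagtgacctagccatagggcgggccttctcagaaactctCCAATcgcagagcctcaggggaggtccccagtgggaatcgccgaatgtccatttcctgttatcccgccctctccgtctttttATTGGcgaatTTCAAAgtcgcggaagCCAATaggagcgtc
Mcm6: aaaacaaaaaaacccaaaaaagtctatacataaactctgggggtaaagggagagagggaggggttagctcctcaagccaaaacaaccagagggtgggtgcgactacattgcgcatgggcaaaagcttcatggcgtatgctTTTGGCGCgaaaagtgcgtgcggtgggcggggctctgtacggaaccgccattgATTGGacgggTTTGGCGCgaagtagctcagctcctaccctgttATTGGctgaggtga
The windows are chr7:135716380-135716629 for Mki67, chr11:99024190-99024439 for Top2a, chr2:129297213-129297462 for Ckap2l and chr1:128359706-128359955 for Mcm6. Top2a held 4 CHRs and 6 CCAAT boxes, Mki67 held 2 CHRs and 3 CCAAT boxes, and Ckap2l held 1 CHR and 3 CCAAT boxes. Mcm6 held 2 E2F motifs, 110 and 47 bases before the start, and no CHR. A match describes letters in this window and shows no binding.

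The input libraries held 8177746 to 12533871 counts and the IP libraries 7133726 to 24297713. Genes with at least 10 counts numbered 4176 to 9354 per input library and 6676 to 16846 per IP library. The IP library of sham KO animal 4 had the most and that of hepatectomy KO animal 4 the fewest, so sums, calls and Ccnd1 levels that use the first are also given without it below. Mettl14 itself was at 0 in all 16 input libraries, and it had counts in 5 of 8 flox and 3 of 8 KO IP libraries, so the genotype could not be checked from it. Many members were sparse: a member was at 0 in a median of 5 of 16 IP libraries and 12 of 16 input libraries, and a median of 69.0% of its input count lay in 1 library. Levels are given as CPM, a gene's count divided by its library's total and put on the usual CPM scale, and a count of 0 allows up to 0.12 to 0.42 CPM in an IP library and 0.24 to 0.37 CPM in an input library, for counting error only. Where tests across genes are given, they are edgeR's quasi-likelihood test with Benjamini-Hochberg adjustment over all genes tested, called at an adjusted p under 0.05. After a filter on low counts, 37 of the 40 members were tested in the IP libraries, all but Cdc6, Bub1 and Bub1b, and 17 in the input libraries.

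**Figure D1:**
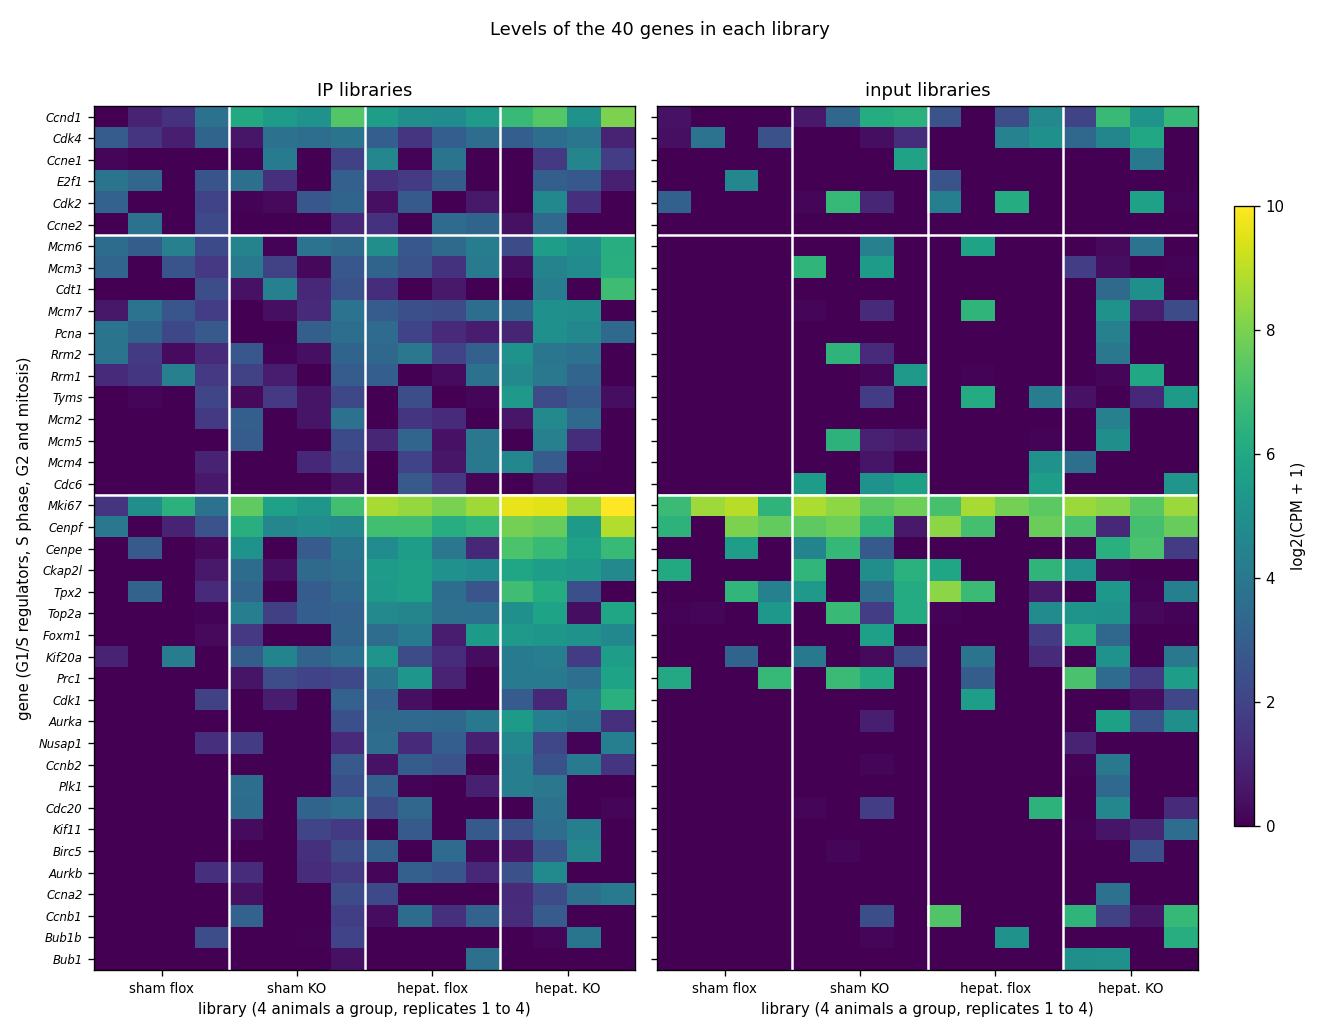
Level of each of the 40 genes (rows, grouped by role and ordered by mean IP level) in each library (columns, 4 animals a group), as log2(CPM + 1), for IP libraries on the left and input libraries on the right. Mki67 is bright in all 16 input libraries, most other members are dark in most of them, and in the IP libraries the G2 and mitosis block is darkest in sham flox.

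The G2 and mitosis genes together made up the least of the IP libraries in sham flox liver and the most in hepatectomy KO liver. Their summed level was 49.0 ± 37.6 CPM (SD, n = 4) in sham flox, 218 ± 128 in sham KO, 646 ± 159 in hepatectomy flox and 1560 ± 776 in hepatectomy KO. Sham flox libraries ranged from 18.2 to 103 CPM, below the sham KO range of 105 to 376, which in turn lay below both hepatectomy groups. Without sham KO animal 4 the sham KO sum was 201 ± 152 CPM (n = 3). Hepatectomy KO animals 1 to 4 had 1610, 1410, 670 and 2550 CPM, and the library of animal 4 had the lowest total of all. Mki67, the gene of the proliferation marker Ki-67, carried much of these sums. The sums of the other 21 genes were 16.5 ± 1.80 CPM in sham flox, 118 ± 60.9 in sham KO, 297 ± 107 in hepatectomy flox and 662 ± 256 in hepatectomy KO. In sham flox, 68 of 88 gene-by-library values were 0, and 10 of the 22 genes were at 0 in all 4 libraries, among them the mitotic cyclins Ccnb1 and Ccnb2, the kinases Aurka and Plk1, and Cdc20, an activator of the anaphase-promoting complex. In whole liver, more cells in cycle and more of this RNA per cell cannot be told apart, and an IP level moves with both the amount of an RNA and its methylation.

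**Figure D2:**
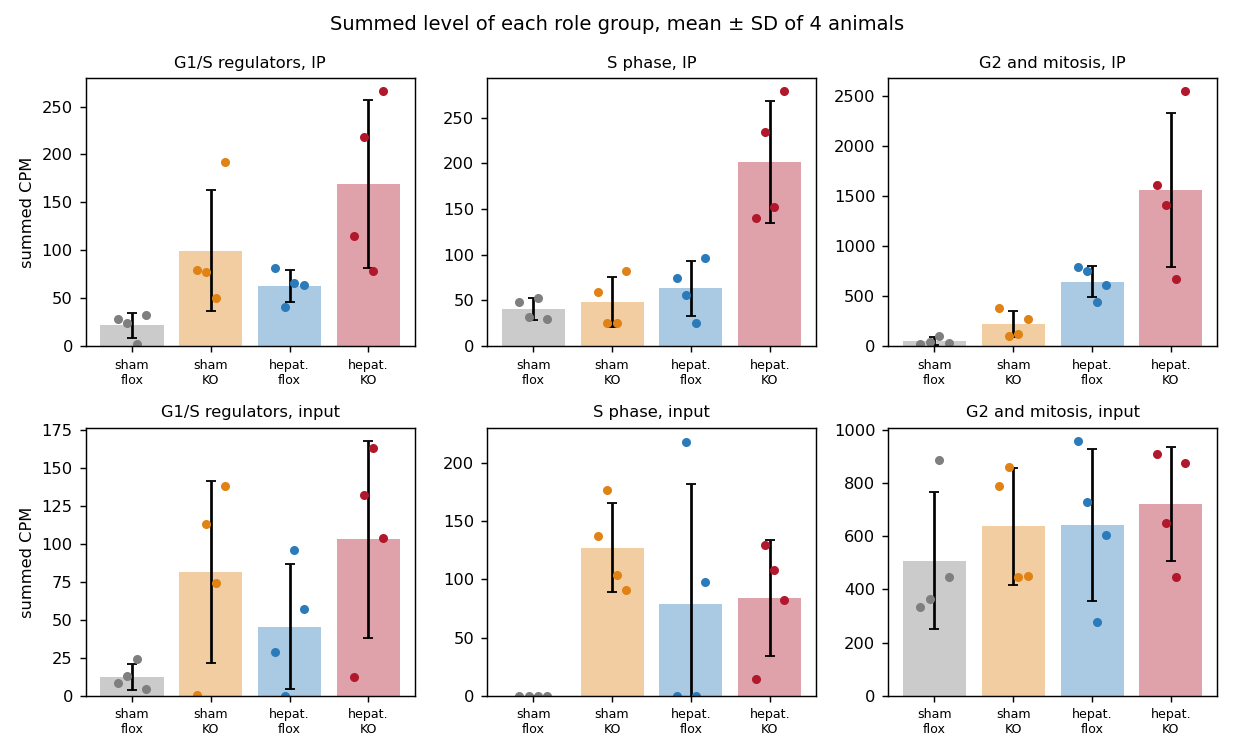
Summed CPM of the 6 G1/S regulators, 12 S phase genes and 22 G2 and mitosis genes in IP (top) and input (bottom) libraries; bars are means, error bars SD and points the 4 animals of a group. In the IP libraries the mitosis sum is lower in sham flox than in sham KO and lower in sham KO than in both hepatectomy groups, without overlap, while in the input libraries all 4 groups overlap for it.

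After hepatectomy in flox mice, 2 of the 37 tested members rose in the IP libraries, Top2a and Ckap2l, against 0.0285% of all 14020 genes called higher. No member fell. Top2a (ENSMUSG00000020914, chr11:98992943-99024189 in the table's coordinates, whose build is not stated but whose positions match GRCm38.p6) encodes the topoisomerase that untangles chromosomes before mitosis. Its level was 0, 0, 0 and 0.061 CPM in sham flox animals 1 to 4 and 24.9, 22.7, 11.8 and 11.6 CPM in hepatectomy flox animals 1 to 4. These IP groups were far apart, and the sham flox IP libraries held a single count in all. The fitted change was 7.13 ± 1.32 (log2, SE; adjusted p = 0.04245), and the ratio of the summed counts was 978 with a 95% counting interval from 175 to 38700. The counting interval pools the counts of a group and does not cover the spread between animals. Ckap2l (ENSMUSG00000048327, chr2:129268210-129297212) encodes a protein of the spindle. It stood at 0, 0, 0 and 0.61 CPM in sham flox and at 43.6, 50.0, 31.9 and 28.4 CPM in hepatectomy flox, again with no overlap, and the change was 7.20 ± 1.32 (log2, SE; adjusted p = 0.04245). In the input libraries both genes overlapped between these groups. Top2a was at 0.0809, 0.085, 0 and 39.3 CPM in sham flox and at 0.0824, 0, 0 and 27.2 CPM in hepatectomy flox. Ckap2l was at 67.1, 0, 0 and 0 CPM in sham flox and at 58.4, 0, 0 and 91.3 CPM in hepatectomy flox. Both IP calls were lost when sham KO animal 4 was left out (adjusted p = 0.05393 for each). That animal is in neither group but shares the fit. The calls were also lost when the 2 oldest sham flox animals were left out (adjusted p = 0.6801 for each). Of 16 fits without 1 library, both genes were called in 5, those without hepatectomy flox animal 4, hepatectomy KO animal 3 or 4, or sham KO animal 2 or 3. Of 274 genes called by DESeq2, 11 were members, all higher, which were these 2 and Ccnd1, Ccne1, Mcm5, Mki67, Foxm1, Ccnb2, Aurka, Cenpf and Prc1.

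Several other members were separated in this comparison without passing the test. The 4 hepatectomy flox IP libraries lay above the 4 sham flox libraries for 9 tested members, against 2.45% of all genes. They were Ccnd1, Mcm5, Mki67, Top2a, Ckap2l, Foxm1, Ccnb1, Aurka and Cenpf. By role they were 7 of 20 tested G2 and mitosis genes, 1 of 11 S phase genes and 1 of 6 G1/S regulators. Mcm5, Ccnb1 and Aurka were at 0 in every sham flox library, so they could not lie lower after hepatectomy. Mki67 (ENSMUSG00000031004, chr7:135689784-135716361) was at 1.91, 30.8, 84.6 and 12.8 CPM in sham flox and at 416, 344, 251 and 383 CPM in hepatectomy flox. The sham libraries spread widely, yet the highest was below the lowest hepatectomy library. The fitted difference was 3.45 (log2; adjusted p = 0.064). Cenpf, a kinetochore protein gene, was at 15.2, 0, 0.924 and 4.82 CPM in sham flox and at 125, 125, 73.6 and 94.1 CPM in hepatectomy flox, a difference of 4.37 (log2; adjusted p = 0.096). Aurka, the centrosome kinase, was at 0 in all 4 sham flox libraries and at 9.88, 9.67, 9.32 and 15.3 CPM after hepatectomy. Against a floor of 3 counts over the group, which covers counting error only, it was at least 203-fold higher (fitted adjusted p = 0.37). Against the same floor, the summed counts of Prc1, which bundles microtubules of the midzone, were at least 238-fold higher, those of Ccnb1 at least 93.4-fold and those of Birc5, the chromosomal passenger survivin, at least 85.7-fold. These 3 differences did not pass the test. Prc1 and Birc5 were at 0 in 1 hepatectomy library each, so their groups touched. The bounds pool the counts of a group and do not cover the spread between animals. Prc1 was at 13.3, 37.2, 0.96 and 0 CPM in the hepatectomy flox IP libraries. In input Prc1 was at 65.2, 0, 0 and 104 CPM in sham flox and at 0, 6.74, 0 and 0 CPM in hepatectomy flox. Ccnb1 was at 0 in all sham flox inputs and at 153, 0, 0 and 0 CPM in hepatectomy flox inputs, and Birc5 at 0 in both.

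By role, the differences in this comparison were larger among the mitosis members than among the others. All 20 tested G2 and mitosis members had a positive fitted difference, with a median of 4.57 (log2). The 9 at 0 in every sham flox library have bounds from pooled counts, which cover counting error only. With these 9 set to their bound the median was 5.47. Of 11 tested S phase members 8 were positive, with a median of 0.50, and of 6 G1/S regulators 4, with a median of 0.53. The median of all genes was 0.05. These medians describe the members and were not tested, and a gene that passed the filter through the hepatectomy libraries alone had to come out higher.

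**Figure D3:**
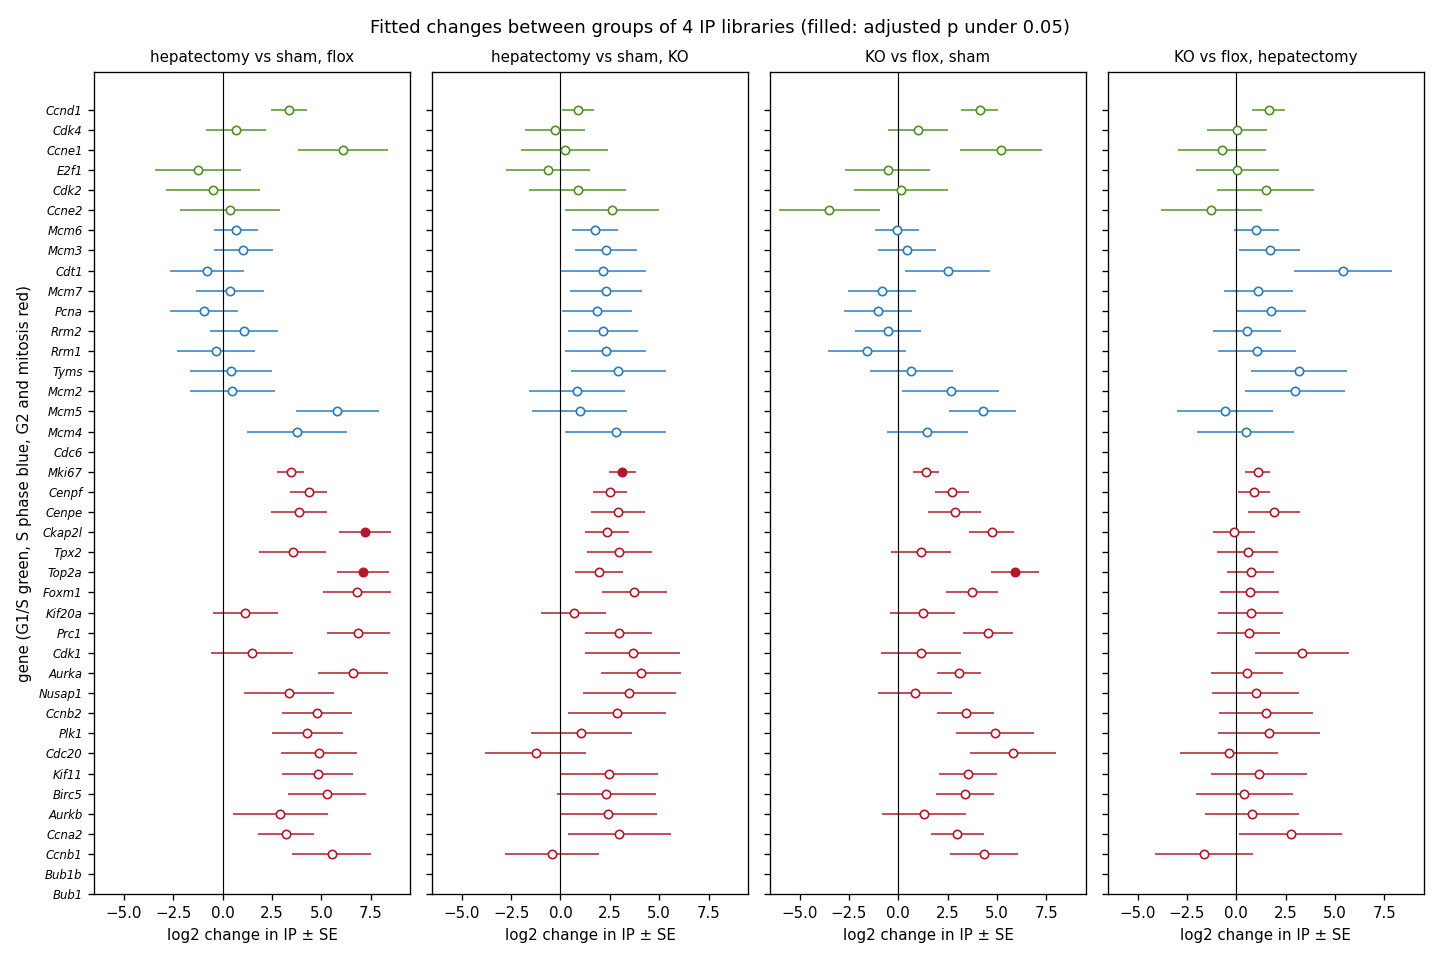
Fitted log2 change ± SE of each tested member in the 4 pairwise comparisons of IP libraries (n = 4 a group), by role; filled points have an adjusted p under 0.05 in edgeR's test, and Cdc6, Bub1b and Bub1, which were not tested, have no point. Filled points are Ckap2l and Top2a in flox after hepatectomy, Mki67 in KO after hepatectomy and Top2a in KO against flox after sham surgery.

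After hepatectomy in KO mice, 1 tested member rose in the IP libraries, Mki67, against 0.0499% of all genes called higher and 0.585% called lower. Its level was 187, 51.3, 38.3 and 123 CPM in sham KO and 821, 747, 366 and 1660 CPM in hepatectomy KO. Every hepatectomy library was above every sham library, and animal 4 of the hepatectomy group was highest. The change was 3.13 ± 0.69 (log2, SE; adjusted p = 0.03024). Without sham KO animal 4 it was 3.17 with an adjusted p of 0.06655, and the call was also lost without sham KO animal 2 (0.1435), sham KO animal 3 (0.1061) or hepatectomy KO animal 1 (0.0517).

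Non-overlapping groups were found for 5 tested members here, Mki67, Ckap2l, Foxm1, Cenpe and Prc1, against 2.12% of all genes. Cenpe, the gene of a kinetochore motor, was at 0, 5.90, 0 and 0.183 CPM in sham flox and at 27.6, 45.9, 14.8 and 1.24 CPM in hepatectomy flox. In KO mice it was at 33.2, 0, 6.40 and 13.7 CPM in sham KO and at 143, 108, 51.2 and 105 CPM in hepatectomy KO (difference 2.91 on the log2 scale, adjusted p = 0.4952). Foxm1, the transcription factor of mitosis genes, was at 2.20, 0, 0 and 8.23 CPM in sham KO and at 41.7, 37.7, 33.5 and 24.5 CPM in hepatectomy KO (3.75, adjusted p = 0.4206). Ckap2l was at 10.6, 0.336, 9.95 and 11.9 CPM in sham KO and at 59.0, 46.1, 41.4 and 25.4 CPM in hepatectomy KO. Cenpf was at 237, 203, 42.8 and 456 CPM in hepatectomy KO, where animal 3 lay below the highest sham KO library at 75.2 CPM. Top2a overlapped too, because hepatectomy KO animal 3 was at 0.303 CPM while animals 1, 2 and 4 were at 31.1, 55.2 and 58.5. Fitted differences were positive for 18 of 20 G2 and mitosis members (median 2.70), for 11 of 11 S phase members (median 2.15) and for 4 of 6 G1/S regulators (median 0.54), beside a median of -0.09 over all genes. Both comparisons of hepatectomy with sham were fitted in the same model.

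**Figure D4:**
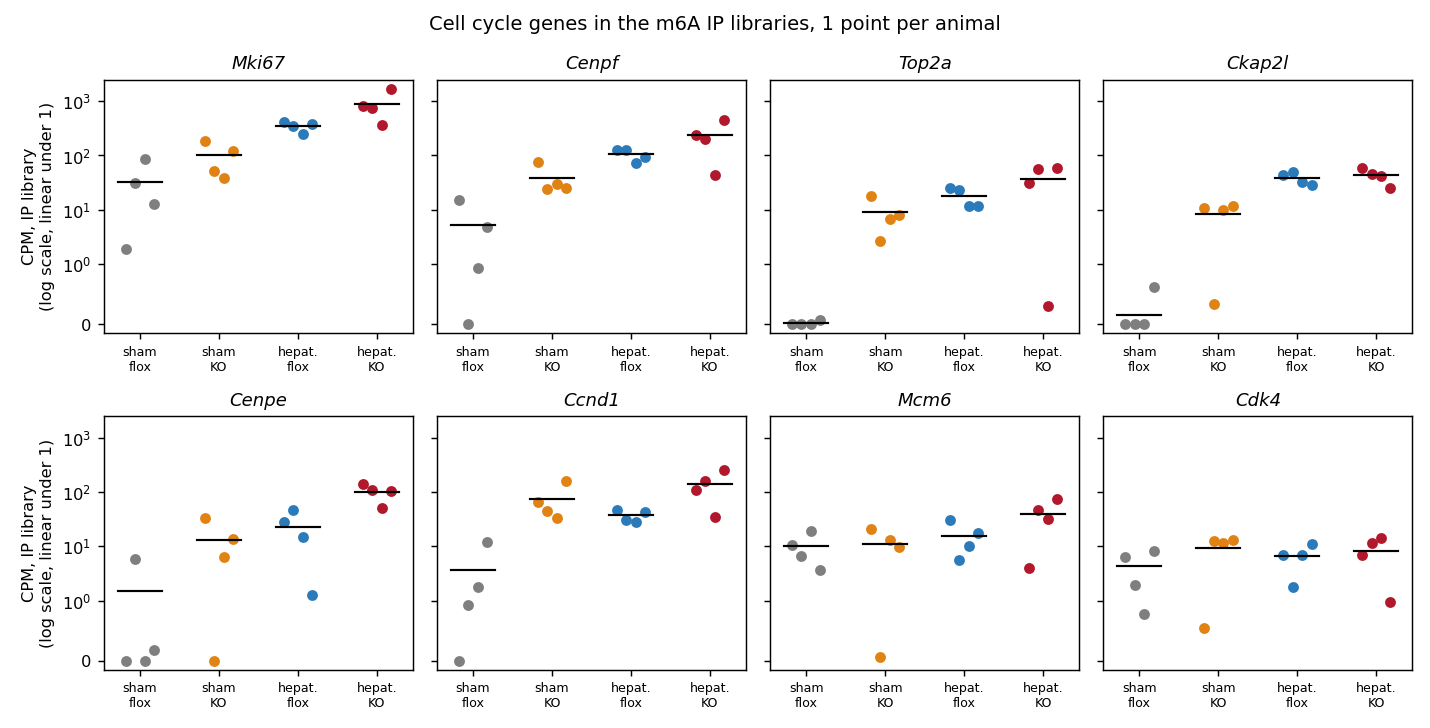
IP level in CPM of 8 members in each animal (points) of the 4 groups, with the group mean as a line; the axis is logarithmic above 1 CPM and linear below. For Mki67 and Cenpf the mean is lowest in sham flox, and for Mcm6 and Cdk4 the 4 groups overlap.

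Between genotypes after sham surgery, Top2a was the 1 tested member that rose in KO, against 0.0428% of all genes called higher and 0.0927% called in either direction. Sham KO animals 1 to 4 had 18.2, 2.69, 6.83 and 7.82 CPM in the IP libraries, beside the 1 IP count in sham flox given above. In input they had 0, 107, 2.55 and 70.6 CPM, which overlapped the sham flox inputs. In IP all 4 KO libraries were above all flox libraries. The change was 5.90 ± 1.21 (log2, SE; adjusted p = 0.04867), and the ratio of summed counts was 495 with a counting interval from 88.6 to 19600. That interval, too, does not cover the spread between animals. The adjusted p was 0.08912 without sham KO animal 4 and 0.9084 without the 2 oldest sham flox animals. The call was lost in 14 of 16 fits that left out 1 library, all but those without hepatectomy KO animal 3 or 4. Without sham flox animal 4, Ccnd1 and Ckap2l were called instead. Of 186 genes called by DESeq2, 5 were members, all higher: Ccnd1, Top2a, Ckap2l, Ccnb2 and Prc1.

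Between the sham groups 4 tested members did not overlap, Ccnd1, Top2a, Cenpf and Prc1, all higher in KO, against 3.54% of all genes higher and 1.19% lower without overlap. Ccnd1 (cyclin D1, ENSMUSG00000070348, chr7:144929931-144939925) was at 0, 0.919, 1.77 and 12.1 CPM in sham flox and at 66.8, 45.6, 32.9 and 159 CPM in sham KO. Animal 4 was the highest of each group, and the difference was 4.11 (log2; adjusted p = 0.113). Without sham KO animal 4 the KO mean of Ccnd1 was 48.4 ± 17.1 CPM (SD, n = 3). Cenpf was at 75.2, 23.9, 29.2 and 25.3 CPM in sham KO, above the 15.2 CPM of the highest sham flox library. All 20 tested G2 and mitosis members had a positive difference (median 3.23, or 4.67 with bounds for counting error only). The 9 of them at 0 in every sham flox library could not come out lower, so this count is a description alone. The median was 0.44 for S phase members and 0.56 for G1/S regulators. The median over all genes was 0.16. The sham flox libraries, with their many values of 0, enter this comparison and that of surgery in flox mice, so the 2 are not independent.

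After hepatectomy, no member was called between the genotypes, while 0.342% of all genes were called higher and 1.16% lower in KO. By edgeR 1 of 37 tested members had an unadjusted p under 0.05, beside 13.3% of all genes, and DESeq2 called 0 members among 809 genes. The 1 member was Cdt1, a licensing factor that loads the MCM helicase. Cdt1 was at 1.5, 0, 0.621 and 0 CPM in hepatectomy flox and at 0, 18, 0 and 117 CPM in hepatectomy KO, so its difference of 5.43 (log2; adjusted p = 0.3211) rested on 2 animals. In the sham groups Cdt1 was at 0, 0, 0 and 4.21 CPM in flox and at 0.417, 19.3, 1.15 and 4.53 CPM in KO. Cenpe was the 1 tested member whose groups did not overlap, at no more than 45.9 CPM in flox against at least 51.2 CPM in KO; across all genes 4.37% were higher without overlap. Mki67 differed by 1.09 ± 0.64 (log2, SE; adjusted p = 0.5398). The median difference was 0.76 over the 20 mitosis members, 1.11 over 11 S phase members and 0.05 over 6 G1/S regulators, with 0.01 over all genes.

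The test of whether surgery acted differently in the 2 genotypes called 0 of 37 members in the IP libraries, beside 0.0285% of all genes. By edgeR 9 members had an unadjusted p under 0.05, beside 7.88% of all genes. DESeq2 called 3 members, Top2a, Ckap2l and Ccnb2, all with a smaller response in KO, among 268 genes in all. In sham flox IP their summed counts were 1, 10 and 0, so the flox response was measured from a level at or near 0. The lowest p-values were those of Top2a (difference of differences -5.17 on the log2 scale, adjusted p = 0.2619) and Ckap2l (-4.83, adjusted p = 0.3458). For Mki67 it was -0.32 ± 0.89 (SE; adjusted p = 0.9999).

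In the IP libraries the 12 S phase genes of the set were low in all groups and stood highest in hepatectomy KO. Their sum there was 40.6 ± 11.6 CPM in sham flox, 48.1 ± 27.7 in sham KO, 63.0 ± 30.0 in hepatectomy flox and 201 ± 66.7 in hepatectomy KO, where the lowest library, at 140 CPM, was above the highest of any other group, at 96.5. Without sham KO animal 4 the sham KO sum was 36.8 ± 19.6 CPM (n = 3). Hepatectomy KO animals 1 to 4 had 140, 234, 152 and 279 CPM. The library of animal 4 had the lowest total of all and held 4 of the 12 genes at 10 counts or more. No S phase member passed the test in any comparison of IP libraries. Mcm6, a subunit of the MCM2-7 helicase, was at 10.6, 6.76, 19.2 and 3.72 CPM in sham flox and at 30.0, 5.55, 9.99 and 17.4 CPM in hepatectomy flox. In sham KO it was at 21.3, 0.0672, 13.1 and 9.84 CPM and in hepatectomy KO at 4.02, 47.8, 31.3 and 73.3 CPM. All 4 groups overlapped, and its difference after hepatectomy was 0.68 ± 1.12 in flox and 1.76 ± 1.15 in KO (log2, SE). Mcm3, another subunit, was at 8.53, 0, 5 and 2.14 CPM in sham flox, 8.38, 4.87, 1.75 and 16.7 in hepatectomy flox. In KO mice it stood at 15.6, 2.82, 0.164 and 5.64 CPM after sham surgery and at 0.291, 21.4, 27.2 and 78.2 CPM after hepatectomy. Hepatectomy KO held both the highest values and, in animal 1, one of the lowest. Mcm5, a subunit of the same ring, was at 0 in all sham flox libraries and at 1.09, 8.67, 0.395 and 15.1 CPM in hepatectomy flox. Pcna, the sliding clamp, was present in every sham flox library, at 13.9, 8.27, 3.46 and 5.98 CPM, and stood at 10.3, 3, 1.3 and 0.688 CPM in hepatectomy flox. For Rrm2, the small subunit of ribonucleotide reductase, hepatectomy KO animals 1 to 3 had 34.4, 14.1 and 12.7 CPM and animal 4 had 0.

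Among the G1/S regulators, Ccnd1 had the highest mean IP level over the 16 libraries. Their IP sum was 21.6 ± 13.1 CPM in sham flox, 62.7 ± 16.6 in hepatectomy flox, 99.4 ± 62.9 in sham KO and 169 ± 87.4 in hepatectomy KO. Without sham KO animal 4 the sham KO sum was 68.7 ± 16.4 CPM (n = 3). Ccnd1 was at 46.6, 30.5, 28.3 and 43.4 CPM in hepatectomy flox and at 108, 163, 34.4 and 262 CPM in hepatectomy KO. Its order by mean was sham flox, hepatectomy flox, sham KO and hepatectomy KO, and the last 3 overlapped. Cdk4, the kinase partner of cyclin D1, was at 6.44, 1.90, 0.770 and 8.30 CPM in sham flox, 7.02, 1.81, 7 and 11 in hepatectomy flox. In KO mice it stood at 0.536, 12.6, 11.4 and 13.3 CPM after sham surgery and at 6.87, 11.3, 14.1 and 0.981 CPM after hepatectomy. All of its groups overlapped. Ccne1, cyclin E1, was patchy, at 0.0908, 0, 0 and 0 CPM in sham flox, 23.6, 0.0624, 13.3 and 0 in hepatectomy flox. In KO mice it stood at 0.0596, 16.9, 0 and 2.80 CPM after sham surgery and at 0, 2.26, 22.5 and 2.52 CPM after hepatectomy. Each group but sham flox had libraries above 2 CPM and libraries at 0. Per kilobase of exon, over the 16 IP libraries, the highest mean levels were those of Mki67 (34.3 CPM per kilobase), Ccnd1 (13.7), Ckap2l (7.16) and Cenpf (6.20), and the lowest were those of Bub1 (0.176) and Cdc6 (0.117).

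Beyond the 40 genes, a further 40 G2 and mitosis genes, 40 S phase genes and 30 regulators of the cell cycle were listed. None of the 34 tested mitosis genes or 28 tested S phase genes of these lists was called in a comparison of IP libraries. After hepatectomy in flox mice, 32 of the 34 mitosis genes had a positive difference (median 2.48) and 17 of the 28 S phase genes (median 0.30). In sham KO against sham flox, 29 of the 34 were positive (median 2.51) and 12 of the 28 (median -0.30). Of the 40 listed mitosis genes 22 were at 0 in all sham flox IP libraries, and those of them that passed the filter had to come out higher in these 2 comparisons, so the counts are a description alone. After hepatectomy in KO mice, 24 of the 34 mitosis genes (median 1.71) and 22 of the 28 S phase genes (median 0.93) were positive. Between genotypes after hepatectomy, 21 of the 34 (median 0.22) and 18 of the 28 (median 0.58) were positive. The summed IP level of the further mitosis genes was 207 ± 22.1 CPM in sham flox, 317 ± 91.8 in sham KO, 484 ± 34.8 in hepatectomy flox and 872 ± 396 in hepatectomy KO. That of the further S phase genes was 339 ± 49.2 CPM in sham flox, 228 ± 50.9 in sham KO, 314 ± 68.9 in hepatectomy flox and 483 ± 83.0 in hepatectomy KO. For these S phase genes the highest sham flox library and the lowest hepatectomy KO library both stood at 381 CPM. Of the further regulators, Btg2, an antiproliferative gene, rose in sham KO against sham flox (3.30 ± 0.66 on the log2 scale, SE; adjusted p = 0.04513). It was also lower in IP than in input in sham flox (-3.45 ± 0.83, SE; adjusted p = 0.04228).

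In the input libraries no member was called in any of the 5 comparisons, where 0.0114% of all genes were called higher between genotypes after sham surgery, 0.0342% between genotypes after hepatectomy, and 0.0% after hepatectomy in flox, after hepatectomy in KO and in the interaction. Of 17 tested members 3, 1, 6, 0 and 2 had an unadjusted p under 0.05 in these comparisons, beside 9.17%, 14%, 17%, 2.76% and 12.3% of all genes. DESeq2 called 5, 1, 6, 0 and 5 of the 17 members, among 653, 1052, 1353, 148 and 1240 of the 8769 genes fitted. The directions of these calls are not given here. The mRNA of Mki67 was present in all 16. It stood at 112, 365, 479 and 90.8 CPM in sham flox, 134, 414, 241 and 179 in hepatectomy flox. In KO mice it stood at 434, 318, 180 and 222 CPM after sham surgery and at 356, 294, 166 and 362 CPM after hepatectomy. All groups overlapped, with a difference after hepatectomy of -0.04 ± 0.76 in flox and -0.02 ± 0.76 in KO (log2, SE). The mitosis sum in the inputs was 508 ± 257 CPM in sham flox, 636 ± 219 in sham KO, 642 ± 284 in hepatectomy flox and 720 ± 215 in hepatectomy KO. The 12 S phase genes were at 0 in all 4 sham flox inputs, and their sums were 79.0 ± 104 CPM in hepatectomy flox, 127 ± 38.1 in sham KO and 83.8 ± 50.0 in hepatectomy KO. Ccnd1 was the 1 tested member whose sham groups did not overlap in input (1.73% of all genes were higher in KO in that way), with 0.405, 0, 0 and 0 CPM in flox and 0.619, 9.25, 72.7 and 82.8 CPM in KO (7.38 ± 3.27 on the log2 scale, SE; adjusted p = 0.4464).

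Comparing the IP and input library of each animal, Mki67 was lower in IP in all 8 sham animals and higher in IP in all 4 hepatectomy KO animals. In hepatectomy flox it was higher in IP in animals 1, 3 and 4 and lower in animal 2. The fitted IP over input difference was -2.70 ± 0.74 in sham flox (log2, SE; adjusted p = 0.06666), -1.70 ± 0.71 in sham KO (0.1749), 0.85 ± 0.70 in hepatectomy flox (0.5004) and 1.42 ± 0.71 in hepatectomy KO (0.2511). With the animal as a block in the fit, Mki67 was called lower in IP in sham flox. Cenpe came nearest to a call in hepatectomy flox, with a difference of 7.46 ± 2.14 (SE; adjusted p = 0.05035), where it was at 0 in all 4 inputs. No member was called in these 4 comparisons, in which 0.279%, 1.24%, 0.0209% and 0.37% of all genes were called in sham flox, hepatectomy flox, sham KO and hepatectomy KO. In sham flox 0.251% were called higher and 0.0279% lower in IP, and in hepatectomy KO 0.0419% higher and 0.328% lower. Unadjusted p-values under 0.05 were found for 18, 19, 12 and 3 of 39 tested members, beside 30.3%, 34.9%, 20.5% and 19.9% of all genes. DESeq2 called 20, 13, 7 and 2 of the 39 members, among 3537, 4127, 2075 and 2040 of the 14328 genes fitted. The directions of these calls are not given here. For the change of the IP over input ratio with genotype, edgeR called 0 members as well, against 0.0209% of all genes after sham surgery and 0.712% after hepatectomy, where 0.00698% were higher in KO. At an unadjusted p under 0.05 there were 7 and 8 of 39 members, beside 14.8% and 21.4% of all genes. DESeq2 called 14 and 12 of the 39 members, among 2483 and 3231 of the 14328 genes fitted, with directions not given here. The library kits differ between IP and input, so these ratios are open to kit differences that were not tested.

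**Figure D5:**
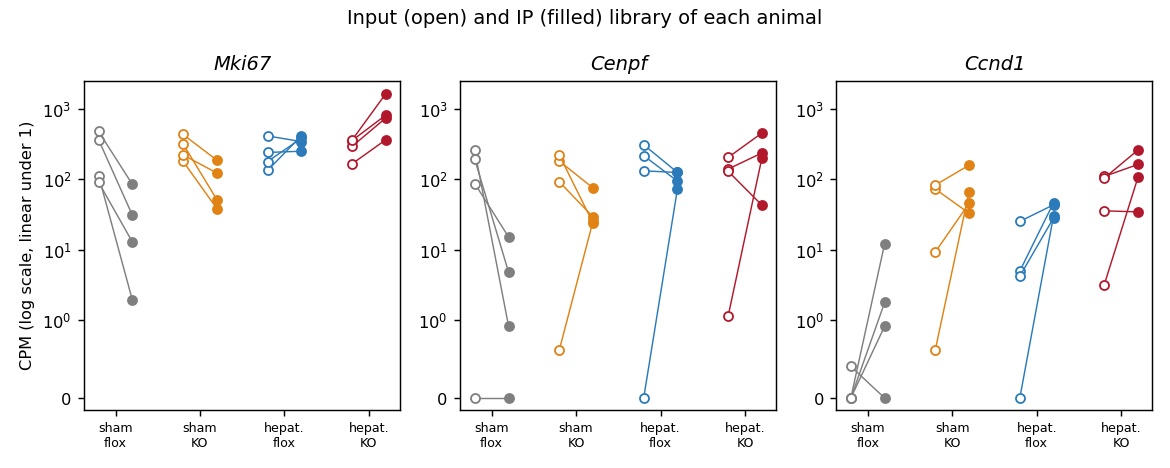
Level in CPM of Mki67, Cenpf and Ccnd1 in the input library (open) and IP library (filled) of each animal, joined by a line; the axis is logarithmic above 1 CPM and linear below. For Mki67 the lines fall in all 8 sham animals and rise in all 4 hepatectomy KO animals.

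Markers of other cell types differed across the same groups, and their summed IP levels are given here as the range over 4 libraries. All 8 hepatocyte markers were present in every group, at 33500 to 47400 CPM in sham flox, 30200 to 46200 in sham KO, 31000 to 46600 in hepatectomy flox and 12600 to 29700 in hepatectomy KO. Of them Apoa1, Hnf4a and Cyp2e1 fell in KO against flox after hepatectomy, and Hnf4a and Cyp2e1 fell after hepatectomy in KO. In the input libraries the 4 groups overlapped for the hepatocyte sum. There it lay at 38700 to 49500 CPM in sham flox and 39200 to 44200 in sham KO. The inputs after hepatectomy lay at 39300 to 44800 CPM in flox and 35500 to 42900 in KO. By group, the highest mitosis sum in IP stood beside the lowest hepatocyte sum in IP. Within hepatectomy KO, though, animal 4 had the highest IP sum of both (2550 and 29700 CPM). Animal 3 had the lowest of both (670 and 12600 CPM). The 6 stellate cell markers summed to 109 to 155 CPM in sham flox, 156 to 568 in sham KO, 161 to 220 in hepatectomy flox and 347 to 560 in hepatectomy KO. In the same order of groups, the 6 cholangiocyte markers summed to 5.08 to 38.4, 29.6 to 183, 8.98 to 188 and 54.4 to 215 CPM. The 6 macrophage markers summed to 210 to 320, 323 to 584, 276 to 423 and 274 to 898 CPM, and the 6 endothelial markers to 175 to 309, 318 to 367, 186 to 288 and 185 to 662 CPM. Lymphocyte markers lay at 0.0 to 25.1, 13.6 to 73.5, 0.0 to 43.0 and 12.6 to 294 CPM, with Cd3e, Cd79a, Ms4a1 and Nkg7 among those at 0 in all sham flox libraries. All 6 neutrophil markers were at 0 in sham flox and lay at 0.238 to 22.0, 0.0 to 24.6 and 0.175 to 63.6 CPM in the other groups. Erythroid markers lay at 49.8 to 85.3, 27.2 to 55.5, 26.1 to 112 and 15.5 to 44.7 CPM. No marker outside the hepatocyte list was called between groups in the IP libraries, and the part of these cells in the levels of the cell cycle genes was not tested.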

How the data were processed

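Livers of 16 mice gave 16 input and 16 m6A IP libraries. The submitters' processing notes name fastp and STAR, without versions; the genome build and the counting program were not given in the sources used here. Estimated counts per gene, as deposited by the authors, were rounded to integers. Names came from the overlap of each gene's position with RefSeq's GRCm38.p6 genes: 37070 of 55421 were named, 2764 of them by 1 end within 200 bases, and all 40 members were found. Whether the counting used strand, and how it treated multi-mapped reads, is not given, so overlapping genes and near-identical copies could share counts.

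CPM used each library's total. Tests were made with edgeR 4.0.16 (R 4.3.3) by the quasi-likelihood test with TMM scaling, filterByExpr with a minimum count of 10, a prior count of 2 and 1 coefficient per group, over 14020 genes in IP, 8769 in input and 14328 in the joint fit. The standard error was the fitted log2 change divided by the square root of F. The fit was tested on simulated data. DESeq2 1.42.0, other scalings, no filter, blocks and left-out libraries were alternatives.

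The members and lists were chosen with earlier results of these data known. Values in every library are given for members past the threshold and for the 3 members of each role with the highest mean IP level. Other members given per library were added after their values were seen; of the further lists, genes past the threshold are named. Input and IP libraries pair by animal in the labels: over 246 genes of at least 100 CPM in every library, their deviations correlated at a median of 0.05 (-0.24 to 0.23). Replicate numbers were shared across groups by number alone. The labels name separate animals by replicate, and no batch. Single values of some cell type markers are not reported here.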

Additional observations from a re-analysis of the deposited data

Results flagged for a closer look

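For 16 members in IP, Mki67 and Ccnd1 in input, and the 3 role sums in both kinds of library, 18 of 96 groups of 4 libraries held a value far from the other 3 (a gap over the group's range above Dixon's critical value). Chance flags about 1 in 20 groups of continuous values, but that rate does not apply to 7 of the 18, in which the other 3 libraries were at 0 and any value would stand apart. These 7 were, in sham flox, Cdt1 (4.21 CPM), Top2a (0.061 CPM), Ckap2l (0.61 CPM) and Foxm1 (0.183 CPM) in IP of animal 4, Ccne1 in IP of animal 1 (0.0908 CPM) and Ccnd1 in input of animal 1 (0.405 CPM), and, in sham KO, Aurka in IP of animal 4 (4.49 CPM). The other 11 were in IP. In sham flox, Ccnd1 was highest in animal 4 (12.1 CPM), Cenpe in animal 2 (5.90 CPM) and Rrm2 in animal 1 (13.4 CPM). In sham KO, Cdk4 was lowest in animal 1 (0.536 CPM), Cenpf was highest in animal 1 (75.2 CPM), Ccne1 was highest in animal 2 (16.9 CPM) and Ckap2l was lowest in animal 2 (0.336 CPM). Aurka was highest in hepatectomy flox animal 4 (15.3 CPM). In hepatectomy KO, Cdt1 stood at 117 CPM in animal 4, Ccne1 at 22.5 CPM in animal 3 and Mcm5 at 19.4 CPM in animal 2.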

How the results depend on the processing

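Fitted directions of the 4 calls held in all alternatives, and none was reversed, but the calls of Top2a and Ckap2l lay near the threshold; the cause of the moves below was not tested. Each animal was left out in turn, with 1 library in the IP or input fits and both of its libraries in the joint fit. The members called then ranged from 0 to 2 for KO against flox after sham surgery in IP. For hepatectomy against sham in IP they ranged from 0 to 4 in flox and 0 to 1 in KO. They also ranged from 0 to 1 for the interaction in IP and for IP over input in hepatectomy flox. They stayed at 0 in the other 11 comparisons. The called change of Top2a ranged from 5.28 to 6.19 (adjusted p 0.01112 to 0.2338) in KO against flox and from 6.92 to 7.31 (0.01259 to 0.177) after hepatectomy, that of Ckap2l from 6.95 to 8.41 (0.003186 to 0.177) and that of Mki67 from 2.65 to 3.63 (0.00479 to 0.1435). Mki67 kept its call with DESeq2, without the filter, with upper-quartile factors, with the replicate block and without the older animals.

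In the IP libraries, members called between genotypes after sham surgery numbered 5 with DESeq2, 4 without the filter on low counts, 0 with upper-quartile factors and 0 without the 2 older sham flox animals. After hepatectomy in flox they numbered 11 with DESeq2, 9 without the filter, 1 (Cenpf) with the replicate number as a block and 0 without the older animals. Without the filter 2 were called after hepatectomy in KO. DESeq2 called 3 in the interaction. In the input libraries DESeq2 called 5 and 1 between genotypes after sham surgery and hepatectomy, 6 after hepatectomy in flox and 5 in the interaction. For IP over input, DESeq2 called 20, 13, 7 and 2 in sham flox, hepatectomy flox, sham KO and hepatectomy KO. The animal as a block called 1 in sham flox (Mki67), and in hepatectomy flox 1 (Cenpe) was called without the filter and 1 without the older animals. For the IP over input ratio between genotypes DESeq2 called 14 after sham surgery and 12 after hepatectomy. Replicate numbers across groups are shared by number alone: same-numbered libraries correlated at -0.3 to 0.57 in IP and -0.26 to 0.2 in input, and over 0.1 in 7 and 2 of 24 pairs. With that block the adjusted p of Top2a was 0.1107 in KO against flox and 0.09497 after hepatectomy, and that of Ckap2l 0.06244. With upper-quartile factors that of Top2a in KO against flox was 0.0537. Uneven counts between libraries limit precision. A median of 28.4% of a member's IP count and 69.0% of its input count lay in 1 library. For genes of like mean level these shares were 21.4% and 54.9%. Ccnb1, for example, had 1855, 0, 0 and 0 counts in hepatectomy flox inputs 1 to 4. The cause of this unevenness was not tested.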
